A study of Saccharomyces cerevisiae with 12 samples.

Results

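Peroxisomal beta-oxidation and the carnitine shuttle were followed through 10 budding yeast genes, namely PXA1, FAA2, POX1, FOX2, POT1, ECI1, SPS19, CTA1, CRC1 and CAT2, out of 5449 Saccharomyces cerevisiae genes measured. The genes were listed by name, and each was read by 1 probe set, none of which carries a suffix for shared sequence. RNA abundance was measured on 12 Affymetrix arrays, 3 biological replicates in each of 4 groups. All strains were labelled MATa his3 leu2 met15 ura3. The groups were a wild type, a strain with nup60Δ::KANR, a strain with ada2Δ::KANR, and a strain labelled with both deletions. NUP60 encodes a nuclear basket protein of the nuclear pore, and ADA2 a subunit of the SAGA histone acetyltransferase. Every strain grew at 30 °C in 50 mL of rich YEPD medium, whose sugar is glucose, until mid-log phase. With 1 strain in each group, the effect of deleting a gene and any further difference of the strain that carries the deletion cannot be told apart.

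In budding yeast, fatty acids are broken down only in peroxisomes. Acyl-CoA enters through an ATP-binding cassette transporter or is made inside by an acyl-CoA synthetase, and an oxidase, a multifunctional enzyme and a thiolase then shorten the chain to release acetyl-CoA. Auxiliary enzymes reshape the bonds of unsaturated chains, and catalase removes the hydrogen peroxide that the oxidase makes. The acetyl units leave as acetylcarnitine, which an inner membrane carrier brings into mitochondria, or through the glyoxylate cycle. Most of these genes are known to be repressed on glucose and induced on oleate through the factors Oaf1, Pip2 and Adr1.

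Values are log2 intensities per probe set, and levels are compared only within a gene, since probe sets differ in brightness. The median over genes lay between 11.21 and 11.28 on the arrays. A background level of 5.62 was set from probe sets for another yeast, S. pombe, and 105 to 148 genes per array were below it. NUP60 averaged 12.53 in wild type, 6.37 in nup60 and 6.20 in the labelled double deletion, and ADA2 10.94 in wild type against 4.23 in ada2 and 4.39 in the labelled double deletion, so both were low wherever the label names them. In ada2, 6 of 7 a-cell marker genes fell, with a summed level of 15.12 to 15.26 against 16.07 to 16.15 in wild type and 16.22 to 16.38 in nup60, while HMRA1 stood near wild type. The arrays labelled as the double deletion went against their label elsewhere. URA3 stood at 12.77 there and between 4.38 and 4.59 in the other groups, all 5 alpha-cell marker genes rose against wild type and all 7 a-cell marker genes fell, with the a1 gene HMRA1 at 4.38 against 11.17 to 11.47. The summed level of the alpha-cell markers was 15.90 to 16.16 there and 10.61 to 11.07 elsewhere, and that of the a-cell markers 13.26 to 13.27 there. Any comparison with these arrays therefore also compared mating-type and URA3 transcripts, from which the deletions cannot be told apart. Wild-type array 1 and array 3 of the labelled double deletion stood apart in poly-A spike controls, at 9.02 and 9.20. The other arrays of the labelled double deletion read 7.37 and 8.02, and all remaining arrays 6.71 to 7.001. The spike level and the labelled double deletion are thus partly confounded.

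**Figure D1:**
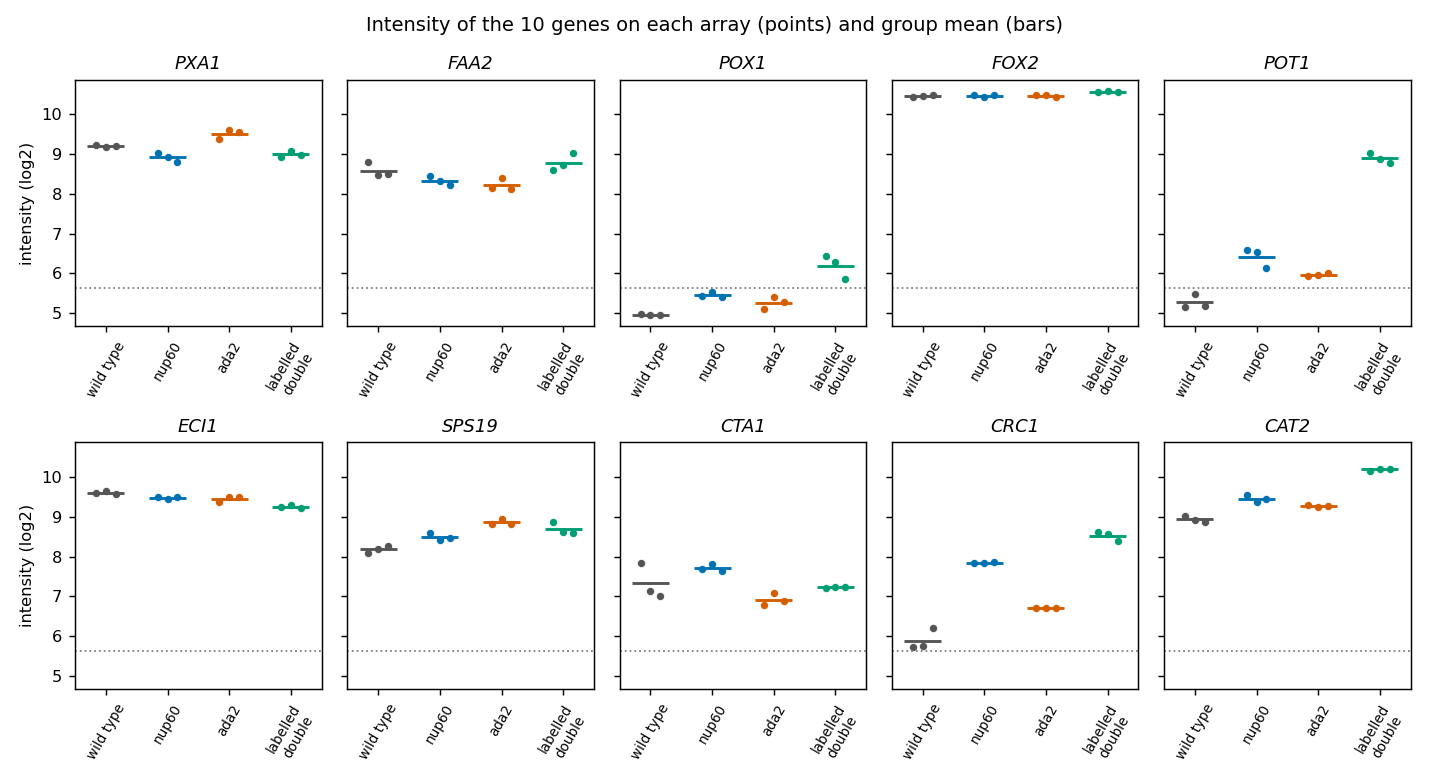
Log2 intensity (vertical axis) of the 10 genes in 4 groups, with a point per array, a bar for the mean of 3 arrays and a dotted line at the background level of 5.62. POT1 and CRC1 climb from near the line to 8.89 and 8.52 in the labelled double deletion, while FOX2 stays between 10.43 and 10.59 on all 12 arrays.

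Against wild type the genes did not move as a block. In RNA of whole cultures, more cells that express a gene and more RNA per cell cannot be told apart. Carrier and transferase genes of the carnitine shuttle, CRC1 and CAT2, rose in all 3 other groups, as did POT1 and SPS19. FOX2 did not pass in either single deletion, ECI1 fell in each group, and PXA1 fell in nup60 and rose in ada2. A gene passed at a limma adjusted p below 0.05, with Benjamini-Hochberg adjustment over all genes. In nup60 5 of the 10 passed upward and 2 downward, where 25.1% and 26.2% of all genes did so and 51.3% passed in either direction. In ada2 the counts were 5 upward and 2 downward, against 22.7% and 23% of all genes and 45.7% together. The labelled double deletion had 6 upward and 2 downward, against 36.1% and 37.1% of all genes and 73.2% together. With so many genes changed in these strains, counts this near to the background are no result about the pathway. The median change of the 10 genes was 0.35 in nup60, 0.31 in ada2 and 0.35 in the labelled double deletion, beside medians over all genes of -0.024, -0.013 and -0.0056. These 3 comparisons share the wild-type arrays. Fitted changes of at least 2-fold upward were found for CRC1 and POT1 in nup60, where 2.61% of all genes had one, for none of the 10 in ada2 (1.25% of all genes), and for POT1, CRC1, CAT2 and POX1 in the labelled double deletion (7.41%). Since wild-type POT1 and POX1 lay below background, only a bound is given for their changes. It is at least 1.74-fold for POT1 in nup60 and at least 1.48-fold for POX1 in the labelled double deletion. Each bound sets a group mean against the background level, with no allowance for error. None of the 10 fell by as much in any of these groups, where 0.0551%, 1.06% and 2.31% of all genes did.

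**Figure D2:**
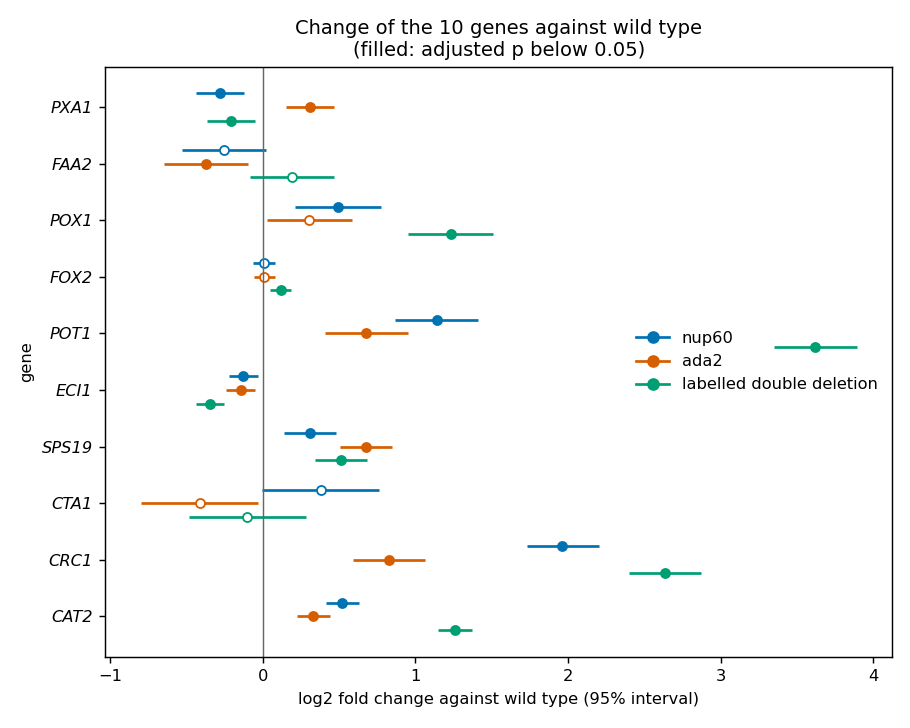
Log2 fold change against wild type (horizontal axis) with its 95% interval for each of the 10 genes, in nup60, ada2 and the labelled double deletion, where filled points passed at an adjusted p below 0.05. The POT1 and CRC1 points of the labelled double deletion lie farthest to the right, at fitted changes of 3.62 and 2.64, the first against a wild type below background, and the PXA1 points of nup60 and ada2 lie on opposite sides of 0.

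CRC1 (YOR100C), the carnitine and acetylcarnitine carrier of the mitochondrial inner membrane, showed the largest fitted change of the 10 genes in both single deletions. Its wild-type arrays read 5.72, 5.74 and 6.19, the nup60 arrays 7.83, 7.84 and 7.86, the ada2 arrays 6.71, 6.70 and 6.71, and the arrays of the labelled double deletion 8.61, 8.56 and 8.40. No array of a group overlapped with those of another, so the order ran from wild type through ada2 and nup60 to the labelled double deletion. CRC1 rose in nup60 by 1.96 ± 0.11 (SE, n = 3 arrays per group), a 3.89-fold change that ranked 34 among the rises of all genes (limma adjusted p = 1.24e-07). In ada2 it rose by 0.82 ± 0.11, rank 111 of 5449 (limma adjusted p = 0.000106). Set directly against ada2, nup60 was higher by 1.14 ± 0.11 (limma adjusted p = 6.6e-06), and in the labelled double deletion CRC1 was higher than in nup60 by 0.68 ± 0.11 (limma adjusted p = 0.000244). The wild-type level lay close to the background.

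CAT2 (YML042W) encodes the carnitine acetyltransferase of peroxisomes and mitochondria, which loads acetyl units onto carnitine. It read 9.02, 8.92 and 8.87 in wild type, 9.55, 9.38 and 9.44 in nup60, 9.29, 9.25 and 9.27 in ada2, and 10.17, 10.21 and 10.21 in the labelled double deletion. The order of the groups was that of CRC1, again with no overlap, and over smaller steps. The rise was 0.52 ± 0.049 in nup60 (limma adjusted p = 1.08e-05), 0.33 ± 0.049 in ada2 (limma adjusted p = 0.000288) and 1.26 ± 0.049 in the labelled double deletion (limma adjusted p = 2.42e-09). The step from ada2 to nup60 was 0.19 ± 0.049 (limma adjusted p = 0.00782), and it did not pass after quantile normalization (0.099, limma adjusted p = 0.11).

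Other genes of the shuttle followed different patterns. YAT1, a carnitine acetyltransferase of the outer mitochondrial membrane, averaged 9.20 ± 0.13 (SD, n = 3) in wild type, 9.40 ± 0.11 in nup60, 10.78 ± 0.033 in ada2 and 10.90 ± 0.12 in the labelled double deletion. YAT1 thus rose by 1.57 ± 0.078 in ada2 (limma adjusted p = 7.49e-08), while its difference of 0.20 ± 0.078 in nup60 did not pass (limma adjusted p = 0.0553). It passed without wild-type array 2 (limma adjusted p = 0.0233), nup60 array 2 (0.0333), or array 1 (0.0425) or array 3 (0.0429) of the labelled double deletion. The difference of nup60 from ada2 for YAT1 was -1.38 ± 0.078 (limma adjusted p = 1.31e-07), the opposite in sign of those of CRC1 and CAT2. AGP2, which encodes a plasma membrane carnitine transporter, rose by 0.49 ± 0.077 in nup60 and 0.93 ± 0.077 in ada2. YAT2, a cytosolic carnitine acetyltransferase, rose by 0.28 ± 0.065, 0.44 ± 0.065 and 1.12 ± 0.065 in nup60, ada2 and the labelled double deletion, and its call in nup60 was lost after quantile normalization (0.10, limma adjusted p = 0.162). CIT2, the peroxisomal citrate synthase that opens the route without carnitine, rose by 0.21 ± 0.065, 0.20 ± 0.065 and 0.69 ± 0.065. The calls of CIT2 in nup60 and ada2 were each lost without wild-type array 1 (limma adjusted p = 0.0655 and 0.0857) or wild-type array 2 (0.0586 and 0.0774). The call in nup60 was also lost without nup60 array 1 (limma adjusted p = 0.055) or array 2 (0.0728), and that in ada2 without ada2 array 2 (0.0936) or array 3 (0.117). Of these 4 genes, 3 passed upward in nup60, 4 in ada2 and 4 in the labelled double deletion, and none passed downward. Upward calls were made for 25.1%, 22.7% and 36.1% of all genes.

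**Figure D3:**
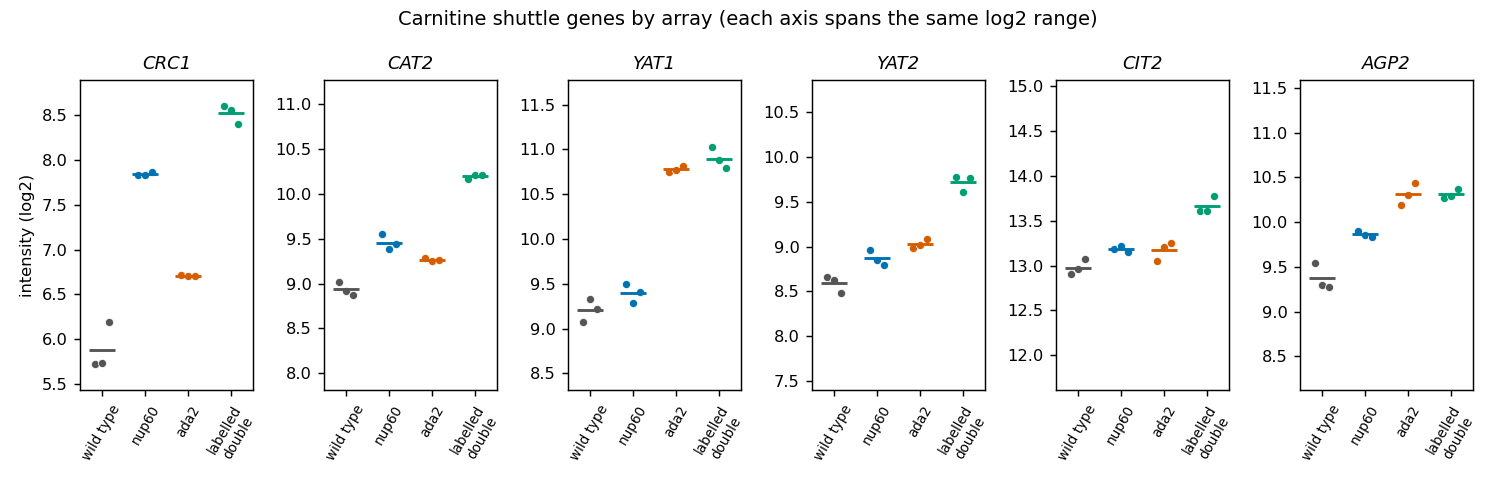
Log2 intensity (vertical axes, each spanning the same range) of CRC1, CAT2, YAT1, YAT2, CIT2 and AGP2 in 4 groups, with a point per array and a bar for the mean of 3 arrays. CRC1 is higher in nup60 than in ada2, by 1.14, while YAT1 is near wild type in nup60 and at 10.78 in ada2.

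In the core of the spiral, the gene of the last enzyme moved most. POT1 (YIL160C), the ketoacyl-CoA thiolase that releases acetyl-CoA, read 5.16, 5.49 and 5.18 in wild type, below background on every array. It read 6.59, 6.53 and 6.13 in nup60, 5.92, 5.95 and 5.9965 in ada2, and 9.02, 8.88 and 8.78 in the labelled double deletion. The groups did not overlap, and their order was again wild type, ada2, nup60 and the labelled double deletion. Since the wild-type arrays give only a bound, POT1 was at least 1.74-fold higher in nup60 (limma adjusted p = 2.77e-05), at least 1.26-fold higher in ada2 (limma adjusted p = 0.00106) and at least 9.68-fold higher in the labelled double deletion (limma adjusted p = 7.95e-10). Such a bound sets the mean of the brighter group against the background level, with no allowance for the error of that mean. Each adjusted p beside a bound tests the fitted change, which uses the wild-type readings, and not the bound. Between groups above background, POT1 was higher in the labelled double deletion than in nup60 by 2.48 ± 0.12 (limma adjusted p = 5.1e-08), the rise of rank 11 among all genes, and higher than in ada2 by 2.94 ± 0.12 (limma adjusted p = 6.56e-09). The step from ada2 to nup60, 0.46 ± 0.12 (limma adjusted p = 0.0088), did not pass after quantile normalization (0.29, limma adjusted p = 0.119).

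POX1 (YGL205W), the acyl-CoA oxidase of the first step, was below background on 9 of the 12 arrays. Its wild-type arrays read 4.98, 4.95 and 4.94, the nup60 arrays 5.42, 5.54 and 5.39, and the ada2 arrays 5.11, 5.40 and 5.28, all below background. Only the arrays of the labelled double deletion, at 6.43, 6.29 and 5.85, were above it. Their mean was at least 1.48-fold higher than wild type, a bound that was not tested, and the fitted change passed (limma adjusted p = 5.21e-06). The upward call in nup60 (limma adjusted p = 0.00772) is one between groups below background, and no fold is given for it. In ada2 POX1 did not pass (limma adjusted p = 0.0716), and passed without array 1 (0.0424) or array 3 (0.00616) of the labelled double deletion. The 1746 probe sets for S. pombe moved by a median of -0.040 in nup60, with a 5th to 95th percentile of -0.243 to 0.162. In the labelled double deletion their median was -0.083, with -0.355 to 0.138. The POX1 arrays of the labelled double deletion lay above the level of most of these probe sets. The part of a dim-end shift in the POX1 values was not tested.

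FOX2 (YKR009C), whose product carries out the hydratase and dehydrogenase steps between oxidase and thiolase, was nearly level. Wild-type arrays read 10.43, 10.46 and 10.48, nup60 arrays 10.48, 10.43 and 10.48, ada2 arrays 10.48, 10.49 and 10.44, and arrays of the labelled double deletion 10.56, 10.59 and 10.57. The first 3 groups overlapped, and the last lay above them. The 95% interval of the change was -0.063 to 0.079 in nup60 and -0.060 to 0.082 in ada2, so a change of 2-fold lay far outside both. FOX2 was higher in the labelled double deletion than in wild type by 0.12 ± 0.032 (limma adjusted p = 0.00685), a call lost after quantile normalization (0.053, limma adjusted p = 0.176). Against nup60 and ada2 the labelled double deletion was higher by 0.11 ± 0.032 each (limma adjusted p = 0.0124 and 0.0128), lost without nup60 array 2 (0.0551) and ada2 array 3 (0.0554). Centring on the array median ended both calls (0.087, limma adjusted p = 0.0598, and 0.058, limma adjusted p = 0.18), and quantile normalization that against ada2 (0.040, limma adjusted p = 0.307). Its group means spanned 0.12, and 4.55% of all genes had a smaller span, whereas 99.4% had a smaller span than POT1 at 3.62 and 98.6% a smaller span than CRC1 at 2.64.

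PXA1 (YPL147W) encodes a subunit of the transporter that imports long-chain acyl-CoA. It read 9.24, 9.18 and 9.19 in wild type, 9.02, 8.94 and 8.81 in nup60, 9.37, 9.62 and 9.55 in ada2, and 8.93, 9.08 and 8.99 in the labelled double deletion. The nup60 arrays lay below all wild-type arrays and the ada2 arrays above them, with a fall of 0.28 ± 0.071 (limma adjusted p = 0.00718) and a rise of 0.31 ± 0.071 (limma adjusted p = 0.00508). The difference of nup60 from ada2 was -0.59 ± 0.071 (limma adjusted p = 4.47e-05). In the labelled double deletion PXA1 fell by 0.21 ± 0.071 (limma adjusted p = 0.0225), and its difference from nup60 did not pass (0.077 ± 0.071, limma adjusted p = 0.37). The fall in the labelled double deletion was lost without wild-type array 1 (limma adjusted p = 0.056) and without array 1 (0.0799) or array 3 (0.0508) of the labelled double deletion. PXA2, the partner subunit of the same transporter, averaged 8.98 in wild type and rose in each group, by 0.31 ± 0.081, 0.36 ± 0.081 and 0.90 ± 0.081, with the call in nup60 lost after quantile normalization (0.12, limma adjusted p = 0.119).

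FAA2 (YER015W), a peroxisomal acyl-CoA synthetase for medium chains, read 8.80, 8.47 and 8.50 in wild type, 8.45, 8.33 and 8.23 in nup60, 8.14, 8.39 and 8.12 in ada2, and 8.59, 8.72 and 9.02 in the labelled double deletion. Both single deletions lay below wild type and the labelled double deletion overlapped with it. The fall in ada2 passed (-0.37 ± 0.12, limma adjusted p = 0.0315), but not without wild-type array 1 (-0.27, limma adjusted p = 0.0968), which read highest of its group, nor without ada2 array 1 (0.0984) or ada2 array 3 (0.103). The difference in nup60, -0.25 ± 0.12, did not pass (limma adjusted p = 0.112), with a 95% interval of -0.53 to 0.022, and passed after quantile normalization (-0.49, limma adjusted p = 0.0036). In the labelled double deletion the difference from wild type was 0.19 ± 0.12 (limma adjusted p = 0.183), and it passed without wild-type array 1 (0.30, limma adjusted p = 0.0466). FAA2 was higher in the labelled double deletion than in nup60 by 0.445 ± 0.12 (limma adjusted p = 0.00918) and than in ada2 by 0.56 ± 0.12 (limma adjusted p = 0.00195), and neither passed after quantile normalization (limma adjusted p = 0.0886 and 0.212).

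The auxiliary enzymes of unsaturated chains parted. SPS19 (YNL202W), a dienoyl-CoA reductase first described as a sporulation gene, read 8.10, 8.19 and 8.26 in wild type, 8.60, 8.42 and 8.47 in nup60, 8.82, 8.93 and 8.83 in ada2, and 8.86, 8.63 and 8.60 in the labelled double deletion. It was the only one of the 10 genes whose highest group mean, apart from that of PXA1, was in ada2. SPS19 rose in ada2 by 0.68 ± 0.077 (limma adjusted p = 4.09e-05), rank 164 among all rises, and in nup60 by 0.31 ± 0.077 (limma adjusted p = 0.00641). The rise in the labelled double deletion was 0.51 ± 0.077 (limma adjusted p = 0.000107), and the difference from ada2 did not pass (-0.17 ± 0.077, limma adjusted p = 0.0736). That difference passed without array 1 of the labelled double deletion (-0.25, limma adjusted p = 0.00703) and after quantile normalization (-0.53, limma adjusted p = 0.000904). After quantile normalization the change was 0.031 in nup60 and 0.0020 in the labelled double deletion, neither of which passed (limma adjusted p = 0.824 and 0.986). Among all genes, 51.3% passed in either direction in nup60, 45.7% in ada2 and 73.2% in the labelled double deletion. Of 5 sporulation marker genes, 2 passed upward and 1 downward in nup60, 1 and 2 in ada2, and 3 and 1 in the labelled double deletion. Their summed level was 9.77 to 10.25 in wild type, 10.13 to 10.21 in nup60, 9.21 to 9.54 in ada2 and 10.81 to 10.89 in the labelled double deletion, and 1 of them, SPS2, was below background on every array. Their part in the result for SPS19 was not tested.

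ECI1 (YLR284C), an enoyl-CoA isomerase, read 9.60, 9.64 and 9.57 in wild type, 9.50, 9.44 and 9.49 in nup60, 9.38, 9.50 and 9.50 in ada2, and 9.25, 9.30 and 9.22 in the labelled double deletion. All other groups lay below wild type, and the nup60 and ada2 arrays overlapped. The falls were small, by 0.13 ± 0.042 in nup60 (limma adjusted p = 0.0267), 0.15 ± 0.042 in ada2 (limma adjusted p = 0.0162) and 0.35 ± 0.042 in the labelled double deletion (limma adjusted p = 1.94e-05). The call in nup60 was lost without wild-type array 2 (limma adjusted p = 0.0857), nup60 array 2 (0.0929) or nup60 array 3 (0.0571), and that in ada2 without wild-type array 2 (0.0573) or ada2 array 1 (0.0682). DCI1, a relative of ECI1, averaged 8.49 in wild type and 9.09 in the labelled double deletion, where it rose by 0.60 ± 0.069 (limma adjusted p = 1.22e-05). In nup60 DCI1 also rose, by 0.20 ± 0.069 (limma adjusted p = 0.0343). That call was lost without wild-type array 1 (0.0592), wild-type array 3 (0.116) or any nup60 array (0.0777 to 0.0789).

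CTA1 (YDR256C), catalase A of peroxisomes and mitochondria, varied most among the wild-type arrays. It read 7.84, 7.14 and 7.0031 in wild type, 7.69, 7.80 and 7.63 in nup60, 6.79, 7.08 and 6.88 in ada2, and 7.21, 7.24 and 7.23 in the labelled double deletion. Wild-type array 1, one of the arrays apart in their spikes, exceeded the mean of the other wild-type arrays by 0.77 and overlapped with nup60. None of the comparisons with wild type passed, with changes of 0.38 ± 0.17 in nup60 (limma adjusted p = 0.0903), -0.41 ± 0.17 in ada2 (limma adjusted p = 0.074) and -0.10 ± 0.17 in the labelled double deletion (limma adjusted p = 0.607). Without wild-type array 1 the nup60 change was 0.64 (limma adjusted p = 0.000112). Without wild-type array 3 the ada2 change was -0.58 (limma adjusted p = 0.0195). After quantile normalization the change in the labelled double deletion was -0.64 (limma adjusted p = 0.000763). The direct comparison, whose difference uses no wild-type array, put nup60 above ada2 by 0.79 ± 0.17 (limma adjusted p = 0.00281), with no overlap of arrays. Its error is still pooled over all 12 arrays, wild type included. CTA1 fell from nup60 to the labelled double deletion by 0.48 ± 0.17 (limma adjusted p = 0.0311), a call lost on leaving out any array of either group (limma adjusted p = 0.0506 to 0.0907).

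The direct comparison of the single deletions uses no array that went against its label in URA3 or HMRA1. In it 4 of the 10 genes passed upward and 2 downward, where 25.9% and 26.9% of all genes did so and 52.8% passed in all. CRC1, CTA1, POT1 and CAT2 were higher in nup60, and PXA1 and SPS19 were higher in ada2 (-0.37 ± 0.077 for SPS19, limma adjusted p = 0.00207). FOX2, ECI1, FAA2 and POX1 did not pass. POX1, below background in both groups, passed without array 3 of the labelled double deletion (limma adjusted p = 0.0472). CRC1 was the 1 gene of the 10 at least 2-fold higher in nup60, as were 2.97% of all genes, and none of the 10 was as much lower, as were 0.606%. The labelled double deletion was higher than nup60 in 7 of the 10 genes (33.1% of all genes) and lower in ECI1 and CTA1 (30.6%), together 9 genes against 63.7% of all. It was higher than ada2 in 6 of the 10 (35.2%) and lower in ECI1 and PXA1 (33.9%), together 8 genes against 69.1%. A rise of at least 2-fold was found over nup60 for POT1 (2.66% of all genes) and over ada2 for POT1 and CRC1 (5.25%), and a fall as large for none of the 10 (1.36% and 1.45%). SPS19 was higher than in nup60 by 0.20 ± 0.077 (limma adjusted p = 0.0392). Leaving out any of 6 single arrays ended that call of SPS19, with limma adjusted p of 0.133, 0.1 and 0.152 without nup60 array 2, nup60 array 3 and array 1 of the labelled double deletion, and 0.0507 to 0.0514 for wild-type array 2, ada2 array 1 and ada2 array 3.

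The labelled double deletion was also set against the sum of the single changes on the log2 scale. The fitted departure from that sum passed upward for 3 of the 10 genes, POT1 included, and downward for 1. Of all genes 20.6% and 18.5% did so and 39.2% passed in all. Over all genes 1124 departed upward and 1010 downward, and 912 and 1226 after centring on the array median. The departure also carries the mating-type and URA3 difference of these arrays. As fitted, it reached 2-fold upward for POT1 alone among the 10, as for 1.56% of all genes, and 2-fold downward for none, as for 1.17%. The fitted departure was largest for POT1, at 1.80 ± 0.17 (limma adjusted p = 2.92e-05), with fitted single changes that summed to 1.82 and 3.62 in the labelled double deletion. The wild-type term of each of these values lies below background. That level bounds the departure of POT1 only from above, so neither its size nor its direction is determined. FAA2 departed by 0.82 ± 0.18 (limma adjusted p = 0.00447), from a sum of -0.62 to 0.19. CAT2 departed by 0.41 ± 0.070 (limma adjusted p = 0.00124), from 0.85 to 1.26. SPS19 departed downward, by -0.48 ± 0.11 (limma adjusted p = 0.00594), from 0.99 to 0.51. CRC1, in contrast, stood at 2.64 against a sum of 2.79, with a departure of -0.15 ± 0.15 that did not pass (limma adjusted p = 0.451) and a 95% interval of -0.48 to 0.18. Without wild-type array 3, which read highest of its group, that departure was -0.30 and passed (limma adjusted p = 0.0113). For POX1, below background in wild type and both single deletions, no departure is given. PXA1 departed by -0.23 ± 0.10 (limma adjusted p = 0.0926), which passed without ada2 array 1 (-0.30, limma adjusted p = 0.0303). For CTA1 the departure of -0.068 ± 0.25 (limma adjusted p = 0.838) became -0.33 without wild-type array 1 (limma adjusted p = 0.0357).

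**Figure D4:**
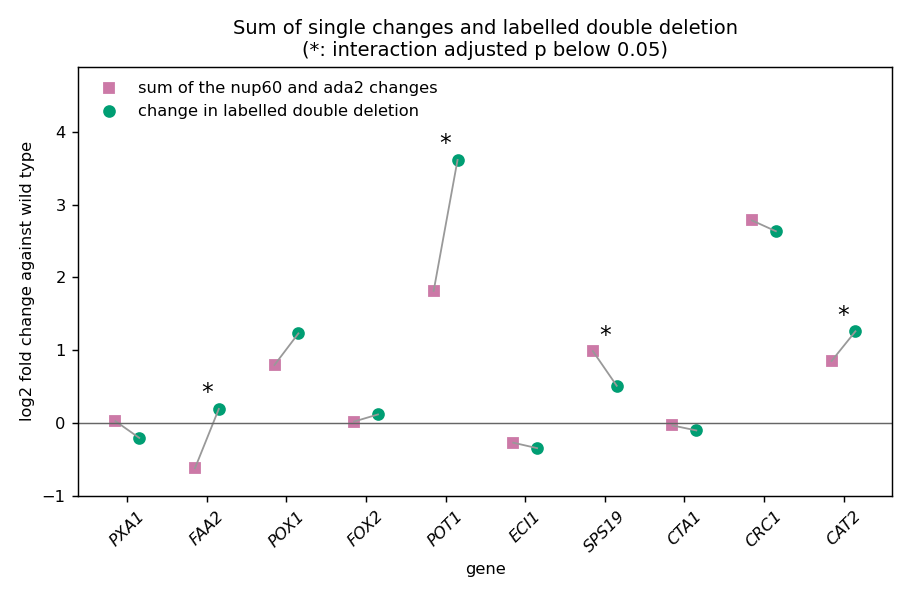
Log2 change against wild type (vertical axis) for each of the 10 genes, as the sum of the nup60 and ada2 changes (squares) and as measured in the labelled double deletion (circles), with a star where the departure passed at an adjusted p below 0.05. The fitted POT1 changes lie at 1.82 and 3.62, both against a wild type below background, while the squares and circles of CRC1 lie at 2.79 and 2.64.

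Group means spanned more than 1 on the log2 scale for POX1, POT1, CRC1 and CAT2. No likeness is given for POX1, which was below background on 9 of the 12 arrays, and POT1 was below it on 3. The genes most like POT1, CRC1 and CAT2 over the 12 arrays were taken by Pearson correlation, as a description. The arrays fall into 4 groups, so these values mostly reflect 4 group means. POT1 was most like FRT2 (r = 0.996), CSR2 (0.995) and CIT3 (0.994), a mitochondrial citrate and methylcitrate synthase gene. CAT2 was most like NDI1 (0.996), the internal NADH dehydrogenase gene of mitochondria, UTH1 (0.994) and the G1 cyclin gene CLN3 (0.994). CRC1 was most like PHB2 (0.993), a prohibitin gene, COQ5 (0.992), a gene of ubiquinone synthesis, and GSP2 (0.992), a Ran homologue. Among the 10 genes themselves, POT1 and CAT2 correlated most (r = 0.983), and ECI1 ran against both (-0.915 and -0.925).

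Regulators of the pathway were read from a list of 7 genes. In nup60 3 passed upward and 1 downward, in ada2 3 and none, and in the labelled double deletion 4 and 1. The shares of all genes that passed in either direction were 51.3%, 45.7% and 73.2%. CAT8, an activator of genes for growth without glucose, rose by 0.98 ± 0.11, 1.90 ± 0.11 and 2.63 ± 0.11 in nup60, ada2 and the labelled double deletion. ADR1, the activator that shares peroxisomal targets with Oaf1 and Pip2, rose by 0.88 ± 0.17, 0.76 ± 0.17 and 1.74 ± 0.17. PIP2 rose only in the labelled double deletion, by 0.53 ± 0.073 (limma adjusted p = 5.8e-05), with 0.046 and 0.086 in nup60 and ada2 that did not pass (limma adjusted p = 0.623 and 0.36). PIP2 was higher in the labelled double deletion than in nup60 by 0.48 ± 0.073 (limma adjusted p = 0.000189) and than in ada2 by 0.44 ± 0.073 (limma adjusted p = 0.000269). OAF1 fell by 0.19 ± 0.059 in nup60 (limma adjusted p = 0.0201), which was lost without wild-type array 1 (0.0634) or nup60 array 2 (0.0732), and did not pass in the other groups. It passed in ada2 without wild-type array 1 (0.16, limma adjusted p = 0.042), and in the labelled double deletion without its array 3 (-0.16, limma adjusted p = 0.0226).

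Among 12 other genes of glucose-repressed metabolism, 7 passed upward and 2 downward in nup60, 9 and none in ada2, and 9 and 2 in the labelled double deletion. In either direction, 51.3%, 45.7% and 73.2% of all genes passed in these groups. The list medians were 0.30, 0.35 and 0.97, and CIT3, a gene most like POT1, belongs to this list. Set directly against ada2, nup60 passed upward for 2 of the 12 and downward for 6, where 25.9% and 26.9% of all genes did so. The list median there was -0.15. HXK1, a hexokinase gene repressed by glucose, rose against wild type by 2.48 ± 0.042, 1.47 ± 0.042 and 3.13 ± 0.042 in nup60, ada2 and the labelled double deletion. This is the group order of CRC1. HXK1 averaged 11.57 in wild type, 14.05 in nup60, 13.05 in ada2 and 14.70 in the labelled double deletion. Outside wild type it makes up much of the summed level of the list. The summed level of the list, HXK1 included, was 13.12 to 13.21 in wild type, 14.48 to 14.56 in nup60, 13.93 to 13.97 in ada2 and 15.11 to 15.14 in the labelled double deletion. ADH2, the alcohol dehydrogenase gene that Adr1 is best known to activate, went the other way, with a fall of 0.54 ± 0.082 in nup60 (limma adjusted p = 0.000328) and 1.08 ± 0.082 in the labelled double deletion (limma adjusted p = 4.45e-07), and -0.22 ± 0.082 in ada2 (limma adjusted p = 0.0501, and 0.00429 without wild-type array 1). The part of glucose-regulated transcripts in the results for the 10 genes was not tested.

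Of 29 listed genes of peroxisome biogenesis, 27 were measured. In nup60 6 passed upward and 3 downward, in ada2 10 and 5, and in the labelled double deletion 13 and 3. Of all genes 51.3%, 45.7% and 73.2% passed in either direction. The list medians were 0.037, 0.041 and 0.046. PEX18, a co-receptor for import of proteins such as thiolase, the product of POT1, rose by 1.02 ± 0.10 in ada2 (limma adjusted p = 1.73e-05) and 1.24 ± 0.10 in the labelled double deletion (limma adjusted p = 8.49e-07), from a wild-type mean of 5.64 that lies at background. Its difference of 0.22 ± 0.10 in nup60 did not pass (limma adjusted p = 0.0908) and passed without wild-type array 1 (0.34, limma adjusted p = 0.00896) or array 3 of the labelled double deletion (0.0476). PEX31 fell in each group, by 0.45 ± 0.046, 0.32 ± 0.046 and 1.02 ± 0.046, while its relative PEX30 rose by 0.30 ± 0.039, 0.20 ± 0.039 and 0.60 ± 0.039. Both encode membrane proteins that regulate peroxisome number and size. Among 15 further genes of fatty acid and peroxisomal metabolism, 4 passed upward and 3 downward in nup60, 2 and 7 in ada2, and 5 and 4 in the labelled double deletion. The same shares of all genes, 51.3%, 45.7% and 73.2%, stand beside these counts. FAA3, a relative of FAA2, had the largest change of these genes in each group. It averaged 12.185 ± 0.45 (SD, n = 3) in wild type, 11.535 ± 0.062 in nup60, 11.127 ± 0.061 in ada2 and 10.974 ± 0.34 in the labelled double deletion. Its fall in nup60, 0.65 ± 0.21 (limma adjusted p = 0.0223), was lost without nup60 array 1 (0.0553) or array 3 (0.0637). FAA4, a main acyl-CoA synthetase gene for imported fatty acids, fell by 0.32 ± 0.084, 0.28 ± 0.084 and 0.91 ± 0.084 in nup60, ada2 and the labelled double deletion. The ada2 call of FAA4 was lost without ada2 array 2 (limma adjusted p = 0.0694). ANT1, the peroxisomal adenine nucleotide transporter gene that supplies ATP to FAA2 inside the organelle, fell by 0.21 ± 0.065, 0.33 ± 0.065 and 0.98 ± 0.065. The fall of ANT1 in nup60 was lost without wild-type array 2 (limma adjusted p = 0.0706), wild-type array 3 (0.0652), nup60 array 1 (0.0579) or nup60 array 2 (0.059).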

How the data were processed

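The deposited values were intensities per probe set on a linear scale, for which the submitters' processing notes name Affymetrix Expression Console 1.1 and RMA. They ran from 11.4 to 51828, and log2 was taken here with no further normalization. Of 10928 probe sets, 213 controls, 1746 for S. pombe, 3470 with no gene in the pairing table and 1 naming several genes were kept apart. The other 5498 stood for 5449 genes, each by its highest-mean probe set. The background level was the 95th percentile of the S. pombe probe set means. The number of arrays limits the precision.

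Group means over all 12 arrays were fitted to every gene by limma 3.58.1 (R 4.3.3), moderated by empirical Bayes with 2.58 prior beside 8 residual degrees of freedom. P-values were adjusted by Benjamini-Hochberg within each of 7 comparisons. Errors are limma's standard errors unless given as SD. The procedure was run on simulated data with independent noise and few changed genes, in nup60 only. Many more genes passed in the data themselves, so the simulation does not bear on the counts given here. The genes and lists were chosen with earlier results of these data known. Named genes were the 10, the label checks, up to 4 of each list with the largest changes, and the 3 most correlated genes. Other relatives, regulators and shuttle genes, and ADH2, were named after their values were seen.

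Other settings tried were array-median centring, quantile normalization, robust moderation, an intensity trend, array weights, a replicate block, a fit to only the compared groups, probe set means, removal of dim genes or of shared-sequence probe sets, and leaving out each array. A fit without both arrays apart in their spikes and a spike covariate were chosen after seeing the data. No sequences were used here.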

Additional observations from a re-analysis of the deposited data

Results flagged for a closer look

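For 4 of the 10 genes the effect of the ada2 deletion differed between strains with and without NUP60, as read by the interaction in limma, where 39.2% of all genes passed, so the count is at the background. These were POT1 (1.80), FAA2 (0.82), SPS19 (-0.48) and CAT2 (0.41), each the log2 effect in the nup60 background minus that in the wild-type background. CAT2 was higher with the ada2 deletion by 0.33 in the wild-type background and by 0.74 in the nup60 background. For POT1 the fitted values were 0.68 and 2.48. The first is against a wild type below background (at least 1.26-fold), so neither the size nor the direction of its interaction is determined. For FAA2 the effect was -0.37 in the wild-type background and 0.445 in the nup60 background, and for SPS19 it was 0.68 and 0.20. The arrays of the labelled double deletion also differed in mating-type and URA3 transcripts, from which the interaction cannot be told apart.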

How the results depend on the processing

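Over 24 alternatives, 34 of the 49 calls of the 10 genes kept their direction and their side of the threshold in each. Of these alternatives, removal of dim genes left out POX1. The 34 include every call of CRC1, CAT2 and POT1 against wild type. They also include all 4 fitted departures from the sum of single changes, that of POT1 with a wild type below background. Leaving out single arrays gave 6 to 8 genes past the threshold in nup60 against wild type (41.9% to 57% of all genes), 5 to 8 in ada2 (36.9% to 50.8%), 7 to 8 in the labelled double deletion (69.9% to 75.6%), 6 to 7 for nup60 against ada2 (45.1% to 59.8%), 6 to 9 and 7 to 9 for the labelled double deletion against nup60 and ada2 (56% to 69.3% and 63.5% to 74.3%), and 4 to 5 for the departures (30.1% to 39.6%). Without both arrays apart in their spikes 7 genes departed from the sum, in place of 4, where the share of all genes went from 39.2% to 48.3%. Quantile normalization gave 4 genes in place of 6 for nup60 against ada2 (54.2% of all genes) and 6 in place of 4 departures (41.5%). The same replicate numbers did not mark arrays that deviate together (correlations of -0.726 to 0.367 between groups), and a replicate block gave 7, 6, 8, 6, 8, 8 and 4 genes in the same order of comparisons (46.8%, 40.5%, 70.7%, 48.8%, 59.7%, 66.4% and 33.3% of all genes), losing FAA2 in ada2 (limma adjusted p = 0.0607) and SPS19 between nup60 and the labelled double deletion (0.0613). Quantile normalization equalizes the dim end of the arrays, where the 5th percentile of the genes differed between groups. It was 7.14, 6.77 and 6.74 in wild type and 6.84 to 6.96 in ada2. In nup60 it was 7.15 to 7.24, and in the labelled double deletion 7.41 to 7.43. The part of this dim-end difference in the results for the 10 genes was not tested.

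Directions turned for 29 values, 28 of them of changes that had not passed. FOX2 turned in nup60 against wild type (-0.033 by quantile normalization, -0.0016 by array weights, -0.0029 with the spike covariate, -0.0077 without both arrays apart, and -0.0077 to 0.026 on leaving out arrays). It also turned in ada2 (-0.0073 by array weights, -0.0047 without both arrays apart, and -0.0047 to 0.027 on leaving out arrays) and in nup60 against ada2 (0.0058 by array weights, and -0.018 to 0.015 on leaving out arrays). FAA2 turned by quantile normalization in the labelled double deletion (-0.26) and in nup60 against ada2 (-0.071). ECI1 turned in nup60 against ada2 (-0.0076 by centring, -0.061 by quantile normalization, and -0.021 to 0.038 on leaving out arrays). CTA1 turned in the labelled double deletion against wild type (0.13 by array weights, 0.15 without both arrays apart, and -0.27 to 0.155 on leaving out arrays), against ada2 (-0.22 by quantile normalization) and in its departure (-0.33 to 0.095 on leaving out arrays). CRC1 turned in its departure with the spike covariate (0.079). Between nup60 and the labelled double deletion, SPS19 turned by quantile normalization (-0.029), the one change of a call, and so did PXA1, which passed there (-0.18, limma adjusted p = 0.0195). For 19 other named genes, DCI1 (-0.028) and PIP2 (-0.018) turned in nup60 by quantile normalization. Where no construction is given, the cause was not tested.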
